A study of Mus musculus with 4 samples.

Results

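The genes described are 10 members of the Polycomb group on 4 mouse expression arrays. They were chosen by name: Ezh1, Ezh2, Eed, Suz12, Jarid2, Bmi1, Rnf2, Phc1, Cbx7 and Scml2. All 10 were measured, by 29 of the 45037 probe sets used, out of 18193 genes on the array. Each gene is led by the probe set whose mean signal was highest, and the other probe sets of a gene are given where they differ from it.

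Biotin-labelled cRNA from 4 cell cultures was hybridised to Affymetrix arrays, a single array per culture. GS (germline stem) cells are cultured spermatogonial stem cells, and mGS (multipotent germline stem) cells are derivatives of them that resemble embryonic stem cells. The other cultures were mouse ES (embryonic stem) cells of the R1 line and Trp53 KO GS cells, from knockout mice that the label places in the strain ICR. The GS and Trp53 KO GS cultures were kept in a modified StemPro-34 medium, and the mGS and ES cultures in ordinary ES medium. Age, passage and the number of clones or animals behind each culture are not stated in the labels, and neither are strains other than ICR. The knockout label was not checked at its target gene, which was not analysed here.

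Polycomb proteins keep developmental genes silent through chromatin, and they work in 2 main complexes. Polycomb repressive complex 2 (PRC2) methylates histone H3 through the alternative enzymes EZH1 and EZH2, held in a core with EED and SUZ12. JARID2 helps bring PRC2 to its sites. Polycomb repressive complex 1 (PRC1) ubiquitinates histone H2A through RNF2 (also called RING1B) or its paralogue RING1, paired with a PCGF protein such as BMI1. In canonical PRC1 a CBX protein such as CBX7 reads the mark left by PRC2, and a PHC protein such as PHC1 joins complexes to each other. In embryonic stem cells CBX7 is known as the main CBX protein of PRC1, and PRC2 is known to hold lineage genes silent there. BMI1 is known for the self-renewal of adult stem cells, largely through silencing of Cdkn2a. SCML2 is a germline Polycomb protein of the mouse that works with PRC1 in spermatogonia and on the sex chromosomes of meiotic cells.

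The DNA just before the start of 4 of these genes is shown because the results turn on them: going from GS to mGS, Bmi1 and Scml2 were the members that passed 2-fold downward, and Suz12 and Cbx7 were among those that passed it upward. The sequences are RefSeq's, of mouse build GRCm38.p6, cover the 250 bases before the annotated start and are written 5′ to 3′ on the gene's own strand. All 10 genes had an entry, and Jarid2 had 2. The Bmi1 stretch lies at chr2:18676768-18677017 on the plus strand, Scml2 at chrX:161162500-161162749 on the plus strand, Suz12 at chr11:79992856-79993105 on the plus strand and Cbx7 at chr15:79932647-79932896 on the minus strand. Capitals mark exact matches, on either strand, to CACGTG (the E-box), to GCGGGA (the core of the E2F6 site) and to the E2F words TTTGGCGC, TTTCCCGC, TTTCGCGC and TTTGCCGC.
Bmi1: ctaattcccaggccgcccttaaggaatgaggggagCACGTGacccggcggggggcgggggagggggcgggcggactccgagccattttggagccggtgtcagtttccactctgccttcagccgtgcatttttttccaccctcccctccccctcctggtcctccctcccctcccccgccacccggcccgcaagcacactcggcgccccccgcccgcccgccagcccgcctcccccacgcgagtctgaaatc
Scml2: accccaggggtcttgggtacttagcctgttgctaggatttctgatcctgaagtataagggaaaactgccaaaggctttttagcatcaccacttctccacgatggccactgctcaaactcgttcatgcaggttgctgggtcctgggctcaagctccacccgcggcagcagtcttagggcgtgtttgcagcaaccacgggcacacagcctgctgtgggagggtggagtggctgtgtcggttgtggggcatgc
Suz12: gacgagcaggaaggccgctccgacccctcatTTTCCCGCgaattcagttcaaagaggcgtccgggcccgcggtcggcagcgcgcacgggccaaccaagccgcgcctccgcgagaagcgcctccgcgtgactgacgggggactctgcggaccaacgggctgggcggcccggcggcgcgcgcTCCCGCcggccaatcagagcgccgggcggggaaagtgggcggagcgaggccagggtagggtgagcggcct
Cbx7: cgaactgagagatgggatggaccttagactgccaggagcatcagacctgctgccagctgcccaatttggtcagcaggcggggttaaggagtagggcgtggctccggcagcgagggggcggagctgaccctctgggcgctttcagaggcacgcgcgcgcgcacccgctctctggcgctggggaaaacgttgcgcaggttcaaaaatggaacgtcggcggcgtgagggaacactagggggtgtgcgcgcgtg

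The Bmi1 stretch held 1 E-box, 215 to 210 bases before the start, and 21 CpG dinucleotides. The Scml2 stretch held none of these words and 7 CpG dinucleotides, near the median of 6 over 32851 promoter entries of the mouse. Suz12 held 1 E2F word, 219 to 212 bases before the start. It also held 2 copies of the E2F6 core, of which the one farther from the start lies inside that E2F word, and 37 CpG dinucleotides. Cbx7 held none of the words and 23 CpG dinucleotides. Among all promoter entries, 6.02% held the E-box, 16.9% the E2F6 core and 1.86% an E2F word in the same window. Among the other members, the E2F6 core was also found once in Rnf2 and in both Jarid2 entries, and no other member held an E-box or an E2F word. These are matches of letters and do not show binding.

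Signals below are quantile normalized over the 4 arrays, in arbitrary units. The floor is the array median, a signal of 82.7, and a lower value was raised to it before a difference was taken, which makes that difference a bound ("at least"). A single array per group allows no test and no replicate check of any difference. The only spread that can be measured is that between probe sets of the same gene. Its standard deviation was 0.50 on the log2 scale for mGS over GS, 0.70 for ES over Trp53 KO GS, 0.49 for Trp53 KO GS over GS and 0.45 for ES over mGS, over at least 4452 genes each. It leaves out any difference between cultures. In whole cultures, fewer cells of a type and less RNA per cell cannot be told apart.

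The labels were set against marker genes. The 7 spermatogonial markers had a median signal of 8212 on the GS and 10557 on the Trp53 KO GS array, against 567 on mGS and 128 on ES. Itga6 departed from this, with 4109 on GS, 907 on Trp53 KO GS, 3312 on mGS and 3094 on ES, and 3 of the 7 (Gfra1, Ret and Itga6) were at least 2-fold lower on Trp53 KO GS than on GS. The 7 pluripotency markers had medians of 10829 and 10189 on the mGS and ES arrays, against 1070.1 and 185 on GS and Trp53 KO GS. Nanog was under the floor on both arrays of the GS medium. As deposited, the added poly-A control dap had medians over its 6 probe sets of 271 and 255 on the GS and mGS arrays. On ES and Trp53 KO GS they were 2545 and 3055. So mGS over GS and ES over Trp53 KO GS lie within these pairs. Trp53 KO GS over GS and ES over mGS cross them. The comparisons mGS over GS and ES over Trp53 KO GS share no array, while cell type and medium change together in each. By its label, ES over Trp53 KO GS also changes the Trp53 genotype, and a strain is labelled only for the knockout.

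On the mGS array, 4 of the 10 genes were at least 2-fold higher than on the GS array: Suz12, Jarid2, Phc1 and Cbx7. Scml2 and Bmi1 were at least 2-fold lower, and Ezh1, Ezh2, Eed and Rnf2 lay within 2-fold. Among the 11981 genes compared on these arrays, 15.3% passed 2-fold upward and 16.5% downward. The median log2 difference of the 10 genes was 0.31, against -0.04 over all genes. Between ES and Trp53 KO GS, 2 of the 10 were higher, Ezh2 and Cbx7, and 3 were lower, Ezh1, Bmi1 and Scml2, where 18.8% and 21.5% of 12325 genes were. By their leading probe sets all 10 had the same sign in these 2 comparisons, as did 76.4% of the 11409 genes compared in both. The second strong probe set of Rnf2 had opposite signs, at 0.33 and -0.43 on the log2 scale. Their median in the second was 0.28, against -0.07 over all genes.

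**Figure D1:**
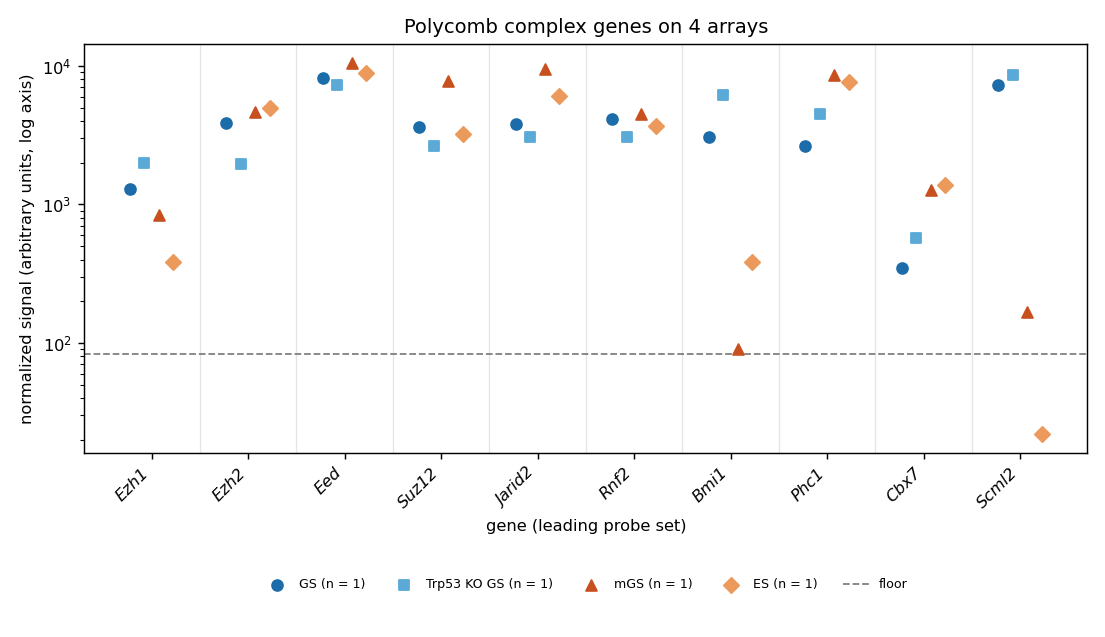
Quantile normalized signal (arbitrary units, log axis) of the leading probe set of each Polycomb complex gene on the 4 arrays, 1 point per array, with the floor of 82.7 as a dashed line. Bmi1 and Scml2 stand lower in ES medium (mGS, ES) than in GS medium (GS, Trp53 KO GS), Cbx7 stands higher, and Eed and Rnf2 lie close together on all 4.

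Scml2 had the widest range of the 10. Its leading probe set, 1421514_a_at, read 7236 on the GS array, 8580.5 on Trp53 KO GS, 166 on mGS and 22.0 on ES, the last under the floor. The 2 GS-medium cultures were thus high and close to each other, and the 2 ES-medium cultures low. Scml2 was 43.6-fold lower on mGS than on GS, the 14th lowest difference of 11981 genes, and at least 104-fold lower on ES than on Trp53 KO GS. A second probe set, 1456984_at, read 5251, 2182, 105 and 15.2 on GS, Trp53 KO GS, mGS and ES. It gave 50.03-fold for mGS and at least 26.4-fold for ES in the same comparisons. Between the GS cultures the probe sets disagreed, with log2 differences of Trp53 KO GS over GS of 0.25 and -1.27. Scml2 lies on the X chromosome. Between ES and mGS it was at least 2.01-fold lower by the leading probe set, a bound set by the floor.

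Bmi1 was the other gene that was low in both ES-medium cultures. Its leading probe set, 1417493_at, read 3067 on GS, 6139 on Trp53 KO GS, 90.1 on mGS and 384 on ES. The mGS signal lay just above the floor, and the ES signal was 4.26-fold above the mGS signal. Bmi1 was 34.0-fold lower on mGS than on GS, the 24th lowest difference, and 15.99-fold lower on ES than on Trp53 KO GS. The second probe set, 1448733_at, read 726, 1120.3, 10.7 and 157 in the same order of arrays. It ran in the same order, at least 8.79-fold lower on mGS than on GS and 7.13-fold lower on ES than on Trp53 KO GS. The difference between ES and mGS was 2.09 on the log2 scale by the leading probe set and at least 0.93 by the second. Of 8 fibroblast markers, 7 were also at least 2-fold higher on ES than on mGS, and their part in the Bmi1 signal of that array was not tested. The 8 markers had a summed signal of 42431 on ES, 18849 on mGS, 5471 on Trp53 KO GS and 3275 on GS, and none was under the floor on ES. On mGS, Fn1 read 10096 and Vim 7871, and the highest of the other markers was Col1a2, at 310.

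Cbx7 differed the other way. The leading probe set, 1433557_at, read 348 on GS, 575 on Trp53 KO GS, 1272 on mGS and 1384 on ES. The cultures in GS medium were low and those in ES medium high, with mGS and ES 1.09-fold apart by this probe set. Cbx7 was 3.65-fold higher on mGS than on GS and 2.41-fold higher on ES than on Trp53 KO GS. A second probe set, 1420039_s_at, gave at least 4.12-fold and 6.68-fold in these comparisons. It read 340 on mGS and 613 on ES, 1.80-fold apart and beyond the spread between probe sets, and the third was under the floor on all arrays. At least 2-fold in all 4 pairs of a culture in ES medium with a culture in GS medium, Cbx7 was the only member higher, and Bmi1 and Scml2 were the only ones lower. Over the 12897 genes above the floor on some array, 7.65% were higher and 8.38% lower by that rule. With the values as deposited, Cbx7 did not pass in all 4 pairs and Phc1 did. With the mean of probe sets Ezh1 was also lower, a mean that takes in Ezh1 probe sets under the floor on all arrays. Single arrays changed these members when left out, an alternative added after seeing the data in which fewer pairs are required. Phc1 was then also higher without the knockout array, Ezh2 without the GS array, and Suz12 and Jarid2 without the ES array. Ezh1 was also lower without the mGS or the GS array. The smallest gap over the 4 pairs was 2.21-fold for Cbx7, 7.99-fold for Bmi1 and 43.6-fold for Scml2.

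The remaining PRC1 members were Phc1 and Rnf2. Phc1, the polyhomeotic subunit, read 2624 on GS, 4535 on Trp53 KO GS, 8647 on mGS and 7627 on ES. It was 3.30-fold higher on mGS than on GS, and 1.68-fold higher on ES than on Trp53 KO GS, with the knockout array 1.73-fold above GS. Only 1 probe set measured it. Rnf2, the catalytic subunit, read 4123 on GS, 3050.1 on Trp53 KO GS, 4522 on mGS and 3696 on ES, and its neighbours in this order lay within the spread between probe sets. A second strong probe set of Rnf2 read 2608, 3633, 3271 and 2692 on those arrays, a similar narrow range with the knockout highest. A weaker one, 1448042_s_at, read 211, 348, 209.8 and 27.5, and so was at least 4.21-fold lower on ES than on Trp53 KO GS.

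**Figure D2:**
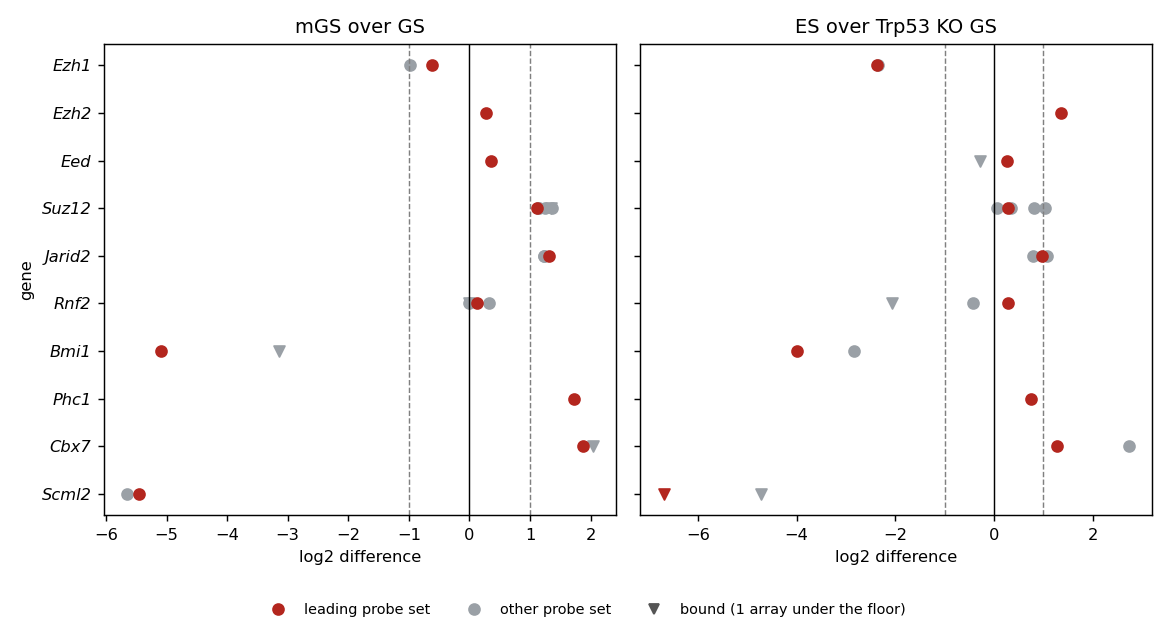
Log2 differences of every probe set above the floor on at least 1 array of the pair, for mGS over GS (left) and ES over Trp53 KO GS (right). Red marks the leading probe set, grey the others, triangles bounds, and dashed lines 2-fold. All 6 probe sets of Suz12 lie past 2-fold for mGS over GS, while 1 of 5 does for ES over Trp53 KO GS.

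Within PRC2, the core genes Eed and Suz12 differed in the size of their range. Eed, the subunit that binds the PRC2 mark, read 8244 on GS, 7332 on Trp53 KO GS, 10582 on mGS and 8825 on ES. Its 4 values spanned 1.44-fold, the narrowest range of the 10 genes by leading probe sets. The second strong Rnf2 probe set spanned 1.39-fold. Another Eed probe set, 1453830_at, was above the floor only on Trp53 KO GS, at 101. Suz12, which holds the core together, read 3597 on GS, 2625 on Trp53 KO GS, 7820.2 on mGS and 3209 on ES. The mGS array stood apart and the other 3 lay within 1.37-fold of each other. All 6 probe sets of Suz12 were at least 2-fold higher on mGS than on GS, with log2 differences from 1.12 to 1.36. Against mGS, ES was lower by all 6 and at least 2-fold lower by 5. Both of these cultures were kept in the ES medium.

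The alternative enzymes of PRC2 differed in opposite directions between ES and Trp53 KO GS cells. Ezh2 read 3887 on GS, 1952 on Trp53 KO GS, 4683 on mGS and 5008 on ES, from its 1 probe set. Ezh1 read 1282 on GS, 1991 on Trp53 KO GS, 835 on mGS and 383 on ES, from 1449023_a_at. Ezh2 was low on the knockout array, while Ezh1 was highest there and lowest on ES. Ezh2 was 2.57-fold higher and Ezh1 5.20-fold lower on ES than on Trp53 KO GS. A second Ezh1 probe set gave 5.09-fold lower for that comparison, and the remaining 2 were under the floor on all arrays. Between mGS and GS the differences had the same signs but lay within 2-fold, at 0.27 for Ezh2 and -0.62 for Ezh1 on the log2 scale. The second Ezh1 probe set gave -0.99 there, just short of 2-fold. Jarid2 read 3817 on GS, 3078 on Trp53 KO GS, 9502 on mGS and 6024 on ES. All 3 of its probe sets were at least 2-fold higher on mGS than on GS, with log2 differences from 1.23 to 1.32, and 1 of 3 was for ES over Trp53 KO GS.

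Between the Trp53 KO GS and GS arrays, which also differ in the dap control, 9 of the 10 genes lay within 2-fold. Of the 10, 5 differed by more than the spread between probe sets: Ezh1, Ezh2, Bmi1, Phc1 and Cbx7. On the log2 scale, the second Cbx7 probe set gave at least 0.15. Ezh1 was 0.63 by its leading and 0.73 by its second probe set. With the mean of probe sets it was -0.06, but that mean takes in Ezh1 probe sets under the floor on all arrays. The median size of the log2 difference was 0.54 for the members and 0.45 over all genes. One gene was at least 2-fold higher, Bmi1 by 2.002-fold, and none lower, where 9.77% of 11623 genes were higher and 6.93% lower. The median log2 difference of the members was 0.04, against 0.07 over all genes. The Bmi1 difference lay at the threshold. It was 1.54-fold by the second probe set, 0.85 on the log2 scale with the values as deposited and 0.64 with arrays centred on their medians. Ezh2 was 1.99-fold lower on the knockout array, and 2.22-fold lower with arrays centred on their medians. The proliferation list was lower on that array as well: 9 of its 12 genes were at least 2-fold lower than on GS, with a median of -2.44, and its summed signal was 33843, against 85818 to 90147 on the other arrays. Its part in the Ezh2 difference was not tested. These values come from comparisons that share the GS or the knockout array.

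Between ES and mGS, the median size of the members' log2 difference was 0.47, against 1.22 for mGS over GS and 1.12 for ES over Trp53 KO GS. Over all genes it was 0.35, 0.64 and 0.78. Bmi1 was higher on ES and Ezh1, Suz12 and Scml2 were lower by at least 2-fold, while 6.90% of 11816 genes were higher and 5.13% lower. The median of the 10 was -0.28, against 0.003 over all genes. For Ezh1, 1 of 2 probe sets passed 2-fold, with 2.18-fold, and the other gave 1.55-fold. The Ezh1 difference was -0.06 on the log2 scale with the mean of probe sets. That mean takes in Ezh1 probe sets under the floor on all arrays and itself fell under the floor on ES, so this value is a bound. Scml2 was under the floor on ES, so its difference moved with the floor. It was -0.88 with the values as deposited, -0.68 with the mean of probe sets and -0.11 with the floor at the 60th percentile. With the floor at the 30th percentile it was -2.46, with no floor -2.92 and with the pseudocount -1.88. Neither the Ezh1 nor the Scml2 call held in every setting. Ezh2 and Phc1, with 1 probe set each, were 1.07-fold and 1.13-fold apart between these arrays, within the spread between probe sets. For Cbx7 the probe sets disagreed, as given above. The ES and mGS arrays also differ in the dap control, at 2545 against 255.

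The other Polycomb genes were taken as a list of 40, of which 38 were measured and all 38 were above the floor on at least 1 array. Between mGS and GS, 5 of them were higher by 2-fold or more and 12 were lower, and the median was -0.23. Between ES and Trp53 KO GS, 4 were higher and 11 lower, and the median was -0.26. Over all genes, 16.5% were lower and 15.3% higher in the first comparison, and 21.5% lower and 18.8% higher in the second.

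Accessory subunits of PRC2 differed in opposite directions. Epop, which joins PRC2 in embryonic stem cells, read 318 on GS, 151 on Trp53 KO GS, 2556 on mGS and 2148 on ES. It was 8.04-fold higher on mGS than on GS and 14.2-fold higher on ES than on Trp53 KO GS. The 3 Polycomb-like genes, which guide PRC2 to DNA, did not move as a group. Phf19 read 139 and 88.1 on GS and Trp53 KO GS and 425 and 332 on mGS and ES, 3.06-fold higher on mGS than on GS. Phf1 read 257 and 472 on GS and Trp53 KO GS and 56.8 and 127 on mGS and ES, at least 3.11-fold lower on mGS than on GS. Mtf2 had a log2 difference of 0.06 between mGS and GS and of -0.04 between ES and Trp53 KO GS. Ezhip, an inhibitor of PRC2 known from germ cells, was 6.27-fold lower on mGS than on GS and at least 4.67-fold lower on ES than on Trp53 KO GS.

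Paralogues of the PRC1 members also split. Among CBX genes, Cbx8 read 527 and 751 on GS and Trp53 KO GS and 42.1 and 109.9 on mGS and ES, the opposite direction to Cbx7. It was at least 6.38-fold lower on mGS than on GS and 6.83-fold lower on ES than on Trp53 KO GS. Cbx2 was 1.88-fold and 3.96-fold lower in these comparisons, and Cbx6 1.59-fold and 1.10-fold higher. Among PCGF genes, Pcgf5, which forms a variant PRC1, read 6251 and 6984 on GS and Trp53 KO GS and 1014 and 738 on mGS and ES. It was 6.17-fold and 9.47-fold lower, the same direction as Bmi1. Pcgf1, Pcgf2, Pcgf3 and Pcgf6 lay within 2-fold in both comparisons. Pcgf2, the closest paralogue of Bmi1, had log2 differences of 0.34 and 0.46. Phc2 was 2.52-fold lower on mGS than on GS, where Phc1 was higher, and Phc3 lay within 2-fold. Ring1, the paralogue of Rnf2, had log2 differences of -0.50 and 0.60.

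**Figure D3:**
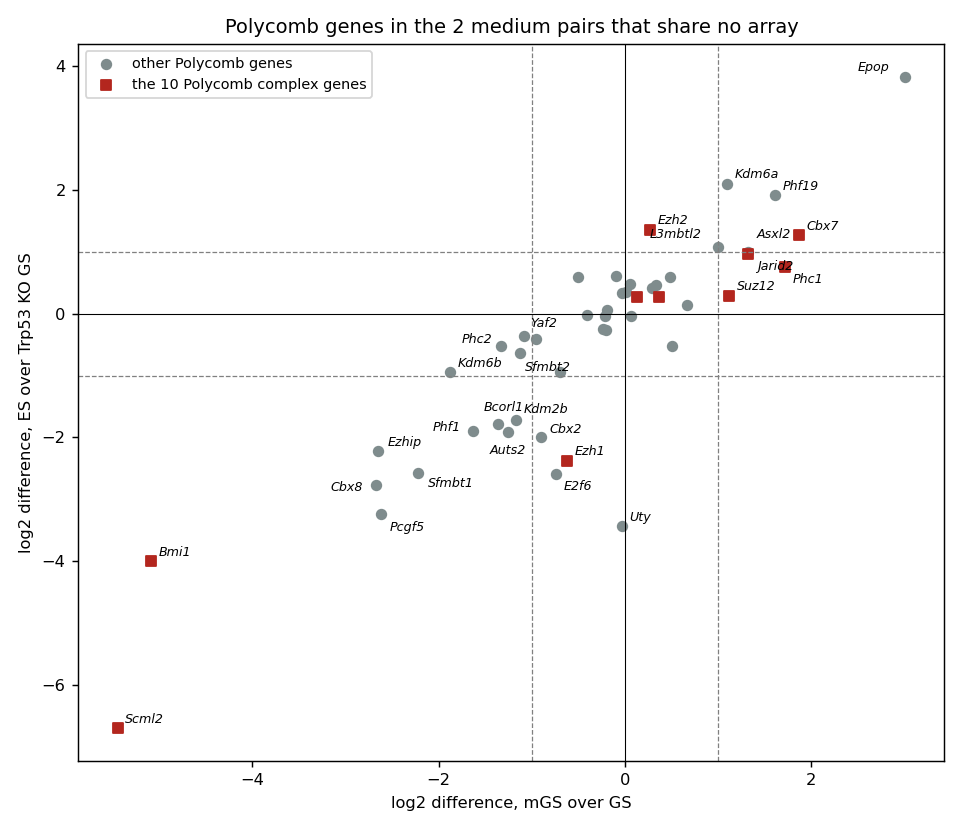
Log2 difference of mGS over GS (horizontal) against that of ES over Trp53 KO GS (vertical) for the 10 Polycomb complex genes (red squares) and 38 other Polycomb genes (grey), 1 point per gene, bounds drawn at their value. Dashed lines mark 2-fold and genes past it in either comparison are named. Scml2, Bmi1, Pcgf5 and Cbx8 lie at the lower left, and Epop, Phf19 and Cbx7 at the upper right.

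Among the genes of variant PRC1 and related complexes, Kdm2b, which brings variant PRC1 to CpG islands, was 2.25-fold lower on mGS than on GS and 3.29-fold lower on ES than on Trp53 KO GS. Auts2 was 2.39-fold and 3.77-fold lower and Bcorl1 at least 2.58-fold and at least 3.43-fold lower. Yaf2 was 2.12-fold lower on mGS than on GS and 1.29-fold lower on ES than on Trp53 KO GS. L3mbtl2 lay at the 2-fold threshold for mGS over GS and was 2.11-fold higher on ES than on Trp53 KO GS. Of the Scml2 relatives, Sfmbt1 was 4.65-fold and 5.93-fold lower, Sfmbt2 was 2.19-fold and 1.55-fold lower, and Scmh1 had log2 differences of 0.01 and 0.35. Asxl2, of the complex that removes the PRC1 mark, was 2.49-fold and 1.99-fold higher. At least 2-fold in all 4 pairs of ES medium with GS medium, Epop and Phf19 were higher and Phf1, Ezhip, Pcgf5, Cbx8, Kdm2b, Bcorl1 and Sfmbt1 were lower. These are 2 and 7 of the 38, where 7.65% of all genes were higher and 8.38% lower by that rule.

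Demethylases that remove the PRC2 mark differed from each other. The X-linked Kdm6a was 2.14-fold higher on mGS than on GS, and Kdm6b 3.67-fold lower. On the Trp53 KO GS array both were lower than on GS, 2.32-fold and 3.13-fold. The Y-linked Uty read 464 on GS, 892 on Trp53 KO GS and 455 on mGS, and 73.3 on ES, under the floor. Apart from these, Epop was 2.11-fold lower and E2f6, a repressor subunit of variant PRC1, 3.11-fold higher on the knockout array than on GS, at 5016 against 1615. On that array 1 of the 38 other Polycomb genes was at least 2-fold higher and 3 were lower. Over all genes 9.77% were higher and 6.93% lower.

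Genes known as Polycomb targets were examined as a list of 61, of which 54 were measured and 26 were under the floor on all 4 arrays. On GS 16 were above the floor and on mGS 7. Of 22 compared between mGS and GS, 10 were at least 2-fold lower and 1 higher, Hoxa5 by at least 2.48-fold. Over all genes 16.5% were lower and 15.3% higher. Of the 22, only Cdkn2b was above the floor on both arrays. The floor thus fixed the direction of the others, and the count supports nothing. Without the floor, where genes under it on both arrays are also compared, 20 of 54 were lower and 14 higher. Cdkn2a, which encodes cell cycle inhibitors and is known to be silenced by BMI1, read 279.9 on GS, 209 on Trp53 KO GS, 53.1 on mGS and 116 on ES. Its signal was lower on the mGS array, where Bmi1 was lowest, by at least 3.39-fold against GS. Its neighbour Cdkn2b read 405, 510.2, 249 and 1411 in the same order of arrays, and was 5.67-fold higher on ES than on mGS. The fibroblast genes given above were also higher on ES, and their part in this was not tested.

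Of the 10 targets lower on mGS than on GS, 7 were of the Hoxb cluster, a grouping noticed after their values were seen. Of 9 Hoxb genes measured, 7 were above the floor on GS and 0 on mGS, so the floor fixed the direction of every Hoxb difference between these arrays and their count supports nothing. Hoxb6 read 606 on GS, 163 on Trp53 KO GS, 15.9 on mGS and 60.7 on ES, and so was at least 7.34-fold lower on mGS. Hoxb4 read 512, 175, 29.6 and 42.3, Hoxb3 433, 229, 24.1 and 179.7, and Hoxb2 408, 357, 9.27 and 125. The GS array was highest for each of them and the mGS array lowest. On ES 3 Hoxb genes were above the floor, and on Trp53 KO GS 5. The endoderm factor gene Foxa2 read 685, 157, 45.9 and 57.8, and Zic1 read 5085 on GS and under the floor on the other 3 arrays. Eomes read 146 on mGS and 314 on ES and was under the floor on GS and Trp53 KO GS. Olig2 read 1182 on ES and was under the floor elsewhere. Gata6, Hoxa9, Hoxa3 and Hoxa11 were higher on mGS than on GS by bounds of 1.18-fold, 1.04-fold, 1.01-fold and 1.01-fold. On Trp53 KO GS, Hoxd8 was at least 2.11-fold, Isl1 1.71-fold, Hoxa3 at least 1.44-fold, Cdkn2b 1.26-fold and Hoxc4 1.16-fold higher than on GS. There 1 of 18 targets compared was at least 2-fold higher and 7 were lower, where 9.77% and 6.93% of all genes were. Targets under the floor on 1 of these arrays could differ in only 1 direction.

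**Figure D4:**
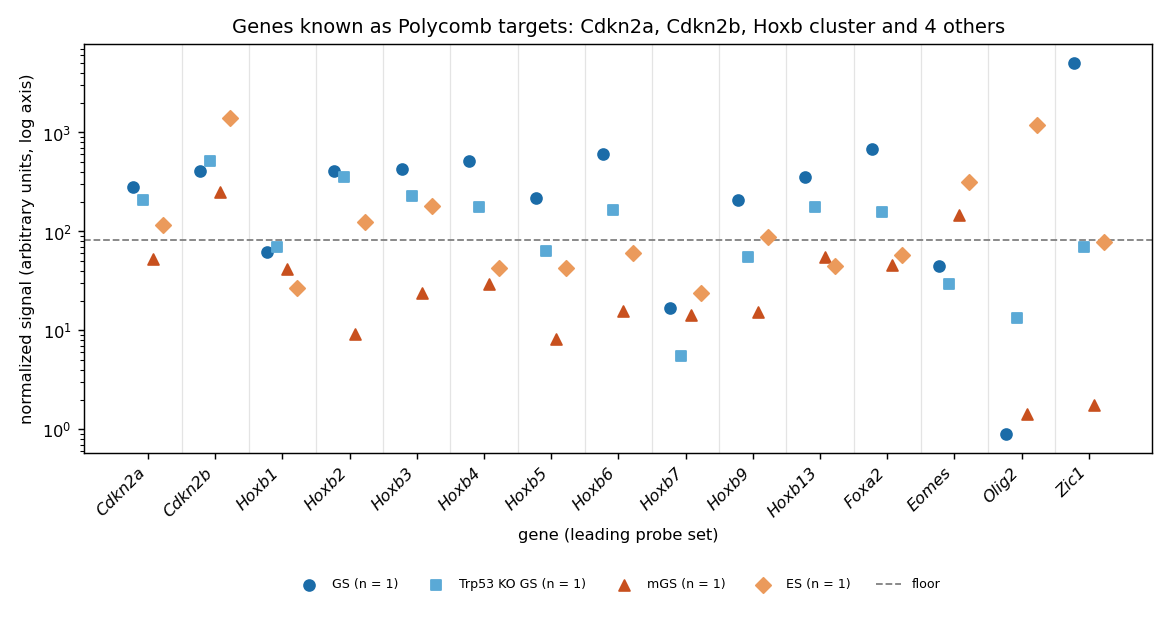
Quantile normalized signal (arbitrary units, log axis) of 15 genes known as Polycomb targets on the 4 arrays, 1 point per array, with the floor of 82.7 as a dashed line. Among the Hoxb genes, Hoxb2 to Hoxb6, Hoxb9 and Hoxb13 stand above the floor on GS and below it on mGS, while Hoxb1 and Hoxb7 lie below it on all 4 arrays.

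Genes whose pattern over the 4 arrays was most like that of a member were sought for the 3 members that spanned at least 4-fold, among 2537 genes with such a span. Likeness was the root mean square difference of the centred log2 values over the 4 arrays. For Ezh1 they were Ccnjl, at 0.038, Ap4m1, at 0.056, and Zfyve26, at 0.057. For Bmi1 they were Sema6d, at 0.16, Sycp3, at 0.39, and Dbndd2, at 0.39. Sycp3 read 4873 on GS, 12488 on Trp53 KO GS, 139 on mGS and 373 on ES. For Scml2 they were Gtsf1, at 0.17, and Asz1 and Mov10l1, each at 0.21. Gtsf1 read 5733 on GS, 8666 on Trp53 KO GS, 177 on mGS and 77.5 on ES. Only 4 values enter each likeness.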

How the data were processed

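Each probe set has 1 linear intensity per array, as the authors deposited it. Which program summarised the probes was not given in the labels. Per the labels' protocols, total RNA was taken with Trizol and biotin-labelled cRNA made by Affymetrix's standard procedure. After 2% of values are trimmed at each end, the mean is 500 on all 4 arrays. That shows scaling to a common mean.

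The table holds 45101 probe sets, and 64 controls among them were left out. The log2 values of the rest were quantile normalized over the 4 arrays, which hides any change in total RNA. Names came from the platform's annotation: 34945 probe sets had 1 symbol, 932 had several and were left out, and 9160 had none listed. By gene identifier, 34741 matched the gene table of GRCm38.p6. A gene took its probe set with the highest mean, which gave 18193 genes. A log2 value under the median was raised to it, and where both arrays of a pair were under it no difference was taken. Differences of 2-fold were counted. Normalization and the taking of differences were tested on simulated data, with differences planted in probe sets of high signal. The choice of the leading probe set and the rule over pairs of media were not tested in this way.

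The members and lists were chosen with earlier results of these data known. Named were all members, their paralogues, and other Polycomb genes 2-fold apart between mGS and GS or between Trp53 KO GS and GS. Also named were Cdkn2a, Cdkn2b and the 3 genes most like a member. So were, in each direction of these comparisons, up to 6 targets with the largest differences. Mtf2, Uty, Olig2 and other Hoxb genes were added after their values were seen. Of 12 genes, the housekeeping list had 8 measured, with medians from -0.10 to -0.004 over the 4 comparisons. Pgk1 departed from them, at 3.25 for mGS over GS and 3.24 for ES over Trp53 KO GS on the log2 scale, as did Hprt in the latter, 2.51-fold higher, and B2m was higher on ES than on mGS, by 1.65. The number of arrays limits the precision. Sertoli, Leydig and leukocyte marker lists, with 5, 4 and 5 genes measured, had summed signals of at most 1089, 474 and 1103 on any array. Python 3.11.15 with numpy 2.4.6, pandas 2.3.3 and matplotlib 3.10.9 was used.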

Additional observations from a re-analysis of the deposited data

How the results depend on the processing

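No paired analysis was possible because each group has 1 array and the labels give no replicate numbers. Differences of Scml2, Bmi1, Cbx7, Suz12, Jarid2 and Phc1 between mGS and GS kept their direction and stayed past 2-fold under 9 alternatives. These were the deposited values, arrays centred on medians, averaged probe sets, probe sets ending in _x_at or _s_at left out, a floor at the 30th or the 60th percentile or none, 32 added to each signal, and probe sets of several symbols kept. No called difference of a member changed sign. Members at least 2-fold higher on ES than on Trp53 KO GS numbered 4 with the values as deposited and 4 with arrays centred on their medians, Jarid2 and Phc1 being added, against 2. For Trp53 KO GS over GS the higher members numbered 0 as deposited, centred on medians, with the mean of probe sets and with the pseudocount, against 1, and the lower members 1, Ezh2, centred on medians, against 0. In the 4 cross pairs of media, 2 members were higher with arrays centred on medians, against 1, and as deposited the 1 member was Phc1 in place of Cbx7. With the mean of probe sets 3 were lower, against 2, Ezh1 being added. A set of alternatives chosen after seeing the data left out 1 array each, and the members higher in the remaining cross pairs then numbered from 1 to 3. They numbered 3 without the ES array and 2 without the Trp53 KO GS or the GS array. The lower members numbered 2 or 3, Ezh1 being the third without the mGS or the GS array. Fewer pairs are required there. With the mean of probe sets, Ezh1 passed 2-fold for mGS over GS, at -1.32, and lost it for ES over mGS, at -0.06, and Rnf2 gained it there, at -1.22. These means take in probe sets under the floor, and the -0.06 is a bound. For mGS over GS, the 2 Ezh1 probe sets above the floor gave -0.62 and -0.99. For ES over mGS, the 2 strong Rnf2 probe sets gave -0.29 and -0.28 and a weaker one a bound of -1.34. The lower Scml2 of ES against mGS was -0.88 as deposited, -0.68 with the mean of probe sets and -0.11 with the 60th percentile floor. It was -2.46 with the 30th percentile floor, -2.92 with none and -1.88 with 32 added. The ES signal of Scml2 was under the floor, so these values depend on where the floor was set. Causes were not tested. Against the quantile values, the median gene shifted with the deposited values by -0.12 for ES over Trp53 KO GS and by 0.11 for Trp53 KO GS over GS. For mGS over GS, the other Polycomb genes numbered 3 higher and 14 lower as deposited and 4 higher and 8 lower with the mean of probe sets. The target genes numbered 6 higher and 16 lower with the floor at the 30th percentile, 8 higher and 17 lower with 32 added, and 0 higher and 7 lower with the floor at the 60th percentile, where 13 were compared.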
